A study of Mus musculus with 12 samples.

Results

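The simple epithelial keratins described here are Krt7, Krt8, Krt18 and Krt19, 4 of the 19938 genes that the array annotation names singly. Each was chosen by its symbol, with earlier results of these data known. Each is read by 1 probe set (Krt7 10427052, Krt8 10432918, Krt18 10427075, Krt19 10391036). The study set 2 mouse iPS lines with competence in tetraploid embryo complementation, LiPS-45 and LiPS-57, against 2 lines without it, LiPS-47 and LiPS-50. In that assay a pluripotent line is combined with a tetraploid host embryo and has to form the fetus itself. All 4 lines came from C57BL/6J mouse embryonic fibroblasts reprogrammed with 3 factors and were grown in embryonic stem cell medium. Each line was sampled in 3 biological repeats, which gave 12 arrays hybridised with biotin-labelled cDNA made from total RNA. Each competence class rests on 2 lines, and the labels do not say whether the repeats were separate thaws or parallel cultures, so p-values measure the spread between these samples.

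Keratins are intermediate filament proteins that polymerise only as pairs of a type I and a type II chain. Krt8 and Krt7 are type II chains, and Krt18 and Krt19 are the type I chains they pair with in single-layered epithelia. Krt8 and Krt18 are the first keratins of the mouse embryo and are filaments of the trophectoderm, the outer epithelium of the blastocyst that forms the placenta. Krt7 and Krt19 are found in the trophoblast and in ductal epithelia, and low levels of Krt8 and Krt18 are known in cultured pluripotent cells.

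The promoters are shown because the 3 genes lie on chromosome 15 and did not move alike. Krt8 and Krt18 are adjacent there, with 0 protein-coding genes between them, Krt7 lies in the same keratin cluster, and Krt19 lies on chromosome 11. The stretches run from 110 bases before to 10 bases after the start of each gene in RefSeq (build GRCm38.p6), 5′ to 3′ on the coding strand. They cover chr15:101412293-101412412 on the plus strand for Krt7, chr15:102004333-102004452 on the minus strand for Krt8 and chr15:102028106-102028225 on the plus strand for Krt18. Capitals mark matches on either strand to TATAAA, to the GC box GGGCGG, to the AP-1 site TGANTCA or to the CACCC box CCACCC, and in Krt8 the matches to TATAAA on both strands overlap.
Krt7: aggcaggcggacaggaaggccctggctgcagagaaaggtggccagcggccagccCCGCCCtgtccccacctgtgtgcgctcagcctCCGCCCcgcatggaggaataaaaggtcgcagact
Krt8: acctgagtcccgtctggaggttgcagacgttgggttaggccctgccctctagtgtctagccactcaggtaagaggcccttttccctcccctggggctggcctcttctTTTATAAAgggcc
Krt18: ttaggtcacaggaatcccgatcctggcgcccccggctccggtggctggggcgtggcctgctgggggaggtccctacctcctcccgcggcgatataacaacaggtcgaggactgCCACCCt
In the whole window of 300 bases, from 250 before to 50 after the start, Krt7 held 4 matches to the GC box. Of all 32851 RefSeq promoters, 35.7% held at least 1 such match. Krt8 held 2 matches to TATAAA and 2 to the CACCC box, and at least 1 match was present in 13.6% and 31.5% of promoters. The matches to TATAAA began 3 and 1 bases before the start and ran across it. Krt18 held 1 match to the CACCC box, which began after the start. None of the 3 windows held TGANTCA, which 7.81% of promoters hold. These matches are descriptions of letters and were not tied to any measurement here.

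All 4 keratins were brighter than the 40th percentile of the tested probe sets (5.21 on the log2 scale) on all 12 arrays. Levels are the deposited intensities, also given as log2(intensity + 1), and they are compared between lines for 1 probe set at a time. The arrays were on a closely shared scale, with median intensities of 50.1 to 53.1. The pluripotency factor Pou5f1 stood at 11.74 ± 0.042 (LiPS-45), 11.72 ± 0.0066 (LiPS-57), 11.69 ± 0.038 (LiPS-47) and 11.56 ± 0.032 (LiPS-50) on the log2 scale, as line means ± SD of 3 arrays, and all 5 defining pluripotency markers passed the brightness limit on every array.

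Krt8, Krt18 and Krt19 had 1 order of lines at the top: LiPS-47 was the highest line for each of them and LiPS-45 came second. Krt7 had another pattern, with LiPS-50 far above the other lines. Between LiPS-57 and LiPS-47, 3 of the 4 keratins passed the test and were lower in LiPS-57, by 1.65-fold for Krt8, 1.66-fold for Krt18 and 1.66-fold for Krt19. Between LiPS-47 and LiPS-50 all 4 passed: Krt8, Krt18 and Krt19 were 1.71-fold, 1.52-fold and 1.42-fold higher in LiPS-47, and Krt7 was 1.77-fold lower in LiPS-47.

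**Figure D1:**
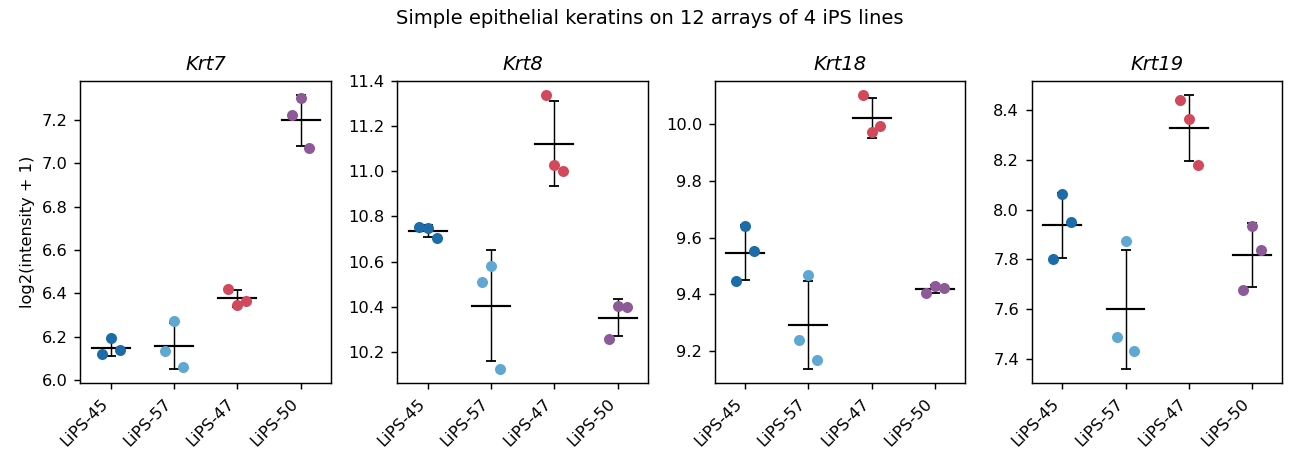
Level of each keratin on each array, as log2(intensity + 1), by iPS line; points are arrays, horizontal bars the mean of 3 arrays, error bars 1 SD, and each panel has its own axis that does not start at 0. LiPS-47 is highest for Krt8, Krt18 and Krt19, and LiPS-50 is highest for Krt7 with a mean of 7.20.

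Krt8, the type II chain of the first embryonic keratin pair, had intensities of 1726, 1720 and 1666 in LiPS-45, and of 1458, 1529 and 1113 in LiPS-57. In LiPS-47 it had 2592, 2088 and 2047, and in LiPS-50 it had 1222, 1353 and 1346. Every LiPS-47 array lay above every array of the other lines, whereas LiPS-57 and LiPS-50 overlapped. On the log2 scale Krt8 averaged 10.74 ± 0.028, 10.40 ± 0.247, 11.12 ± 0.189 and 10.35 ± 0.083 in LiPS-45, LiPS-57, LiPS-47 and LiPS-50 (SD, n = 3 each). LiPS-57 minus LiPS-47 was -0.72 with a standard error of 0.118 (limma, adjusted p = 0.0355), and LiPS-47 minus LiPS-50 was 0.77 (limma, adjusted p = 8.14e-04). LiPS-45 minus LiPS-50 was 0.38 (limma, adjusted p = 0.0437). In the order LiPS-50, LiPS-57, LiPS-45, LiPS-47 no 2 neighbouring lines passed the test: LiPS-57 minus LiPS-50 was 0.05 (95% interval -0.20 to 0.31), LiPS-45 minus LiPS-57 was 0.33 (0.08 to 0.59) and LiPS-45 minus LiPS-47 was -0.39 (-0.64 to -0.13). The call between LiPS-57 and LiPS-47 was lost when any 1 array other than LiPS-57 replicate 2 or LiPS-47 replicate 3 was left out, with adjusted p from 0.0372 to 0.152 over the 12 omissions. The call between LiPS-45 and LiPS-50 was lost on leaving out any 1 array of LiPS-45 or LiPS-50, LiPS-57 replicate 1 or LiPS-47 replicate 2, with adjusted p of 0.0140 to 0.137 over the 12 omissions.

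Krt18, the type I partner of Krt8, had intensities of 697, 797 and 750 in LiPS-45 and of 604, 707 and 574 in LiPS-57. It had 1100, 1003 and 1019 in LiPS-47, and 677, 689 and 685 in LiPS-50. The lowest LiPS-47 array thus exceeded the highest array of any other line, and the LiPS-50 arrays fell inside the range of LiPS-57. The log2 means were 9.55 ± 0.096 (LiPS-45), 9.29 ± 0.156 (LiPS-57), 10.02 ± 0.071 (LiPS-47) and 9.42 ± 0.013 (LiPS-50) (SD, n = 3 each). LiPS-57 minus LiPS-47 was -0.73 with a standard error of 0.081 (limma, adjusted p = 0.00311), and LiPS-47 minus LiPS-50 was 0.60 (limma, adjusted p = 3.60e-04). Both calls held on leaving out each array in turn. LiPS-45 minus LiPS-47 was -0.48 and missed the threshold (limma, adjusted p = 0.0692), although without LiPS-57 replicate 2 its adjusted p was 0.0358. The lower neighbours did not pass the test: LiPS-57 minus LiPS-50 was -0.13 (95% interval -0.30 to 0.05), and LiPS-45 minus LiPS-50 was 0.13 (-0.05 to 0.31), although the LiPS-45 arrays all lay above the LiPS-50 arrays.

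Krt19, a type I keratin that lacks the usual tail domain, had intensities of 222, 266 and 246 in LiPS-45 and of 179, 234 and 172 in LiPS-57. In LiPS-47 it had 346, 328 and 289, and in LiPS-50 it had 204, 244 and 228. LiPS-47 again stood above all other arrays, and the other 3 lines overlapped each other. The log2 means were 7.94 ± 0.130 (LiPS-45), 7.60 ± 0.241 (LiPS-57), 8.33 ± 0.133 (LiPS-47) and 7.82 ± 0.129 (LiPS-50) (SD, n = 3 each). LiPS-57 minus LiPS-47 was -0.73 with a standard error of 0.120 (limma, adjusted p = 0.0365), and LiPS-47 minus LiPS-50 was 0.51 (limma, adjusted p = 0.0117). Among the neighbours in the order LiPS-57, LiPS-50, LiPS-45, LiPS-47, none passed the test: LiPS-57 minus LiPS-50 was -0.22 (95% interval -0.48 to 0.04), LiPS-45 minus LiPS-50 was 0.12 (-0.14 to 0.38) and LiPS-45 minus LiPS-47 was -0.39 (-0.65 to -0.13). The call between LiPS-57 and LiPS-47 was lost on leaving out any 1 array other than LiPS-57 replicate 2 or LiPS-47 replicate 3, with adjusted p of 0.0145 to 0.210 over the 12 omissions. The call between LiPS-47 and LiPS-50 was lost without LiPS-50 replicate 1 (adjusted p = 0.0538).

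Krt7, the type II chain of ductal and trophoblast epithelium, had intensities of 68.5, 72.2 and 69.4 in LiPS-45 and of 69.3, 76.2 and 65.7 in LiPS-57. It had 84.6, 80.4 and 81.3 in LiPS-47, and 148, 157 and 134 in LiPS-50. LiPS-50 and LiPS-47 each stood apart from all other arrays, while LiPS-45 lay inside the range of LiPS-57. The log2 means were 6.15 ± 0.039 (LiPS-45), 6.16 ± 0.106 (LiPS-57), 6.38 ± 0.038 (LiPS-47) and 7.20 ± 0.117 (LiPS-50) (SD, n = 3 each). LiPS-45 minus LiPS-50 was -1.05 (limma, adjusted p = 2.08e-06), LiPS-57 minus LiPS-50 was -1.04 (limma, adjusted p = 2.81e-06) and LiPS-47 minus LiPS-50 was -0.82 (limma, adjusted p = 1.67e-05). These 3 calls held under all 20 alternatives tried. The step below LiPS-47 did not pass: LiPS-45 minus LiPS-47 was -0.23 (95% interval -0.39 to -0.07) and LiPS-57 minus LiPS-47 was -0.22 (-0.38 to -0.06), with adjusted p of 0.358 and 0.562 by limma. LiPS-45 minus LiPS-57 was -0.01 (-0.17 to 0.15).

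**Figure D2:**
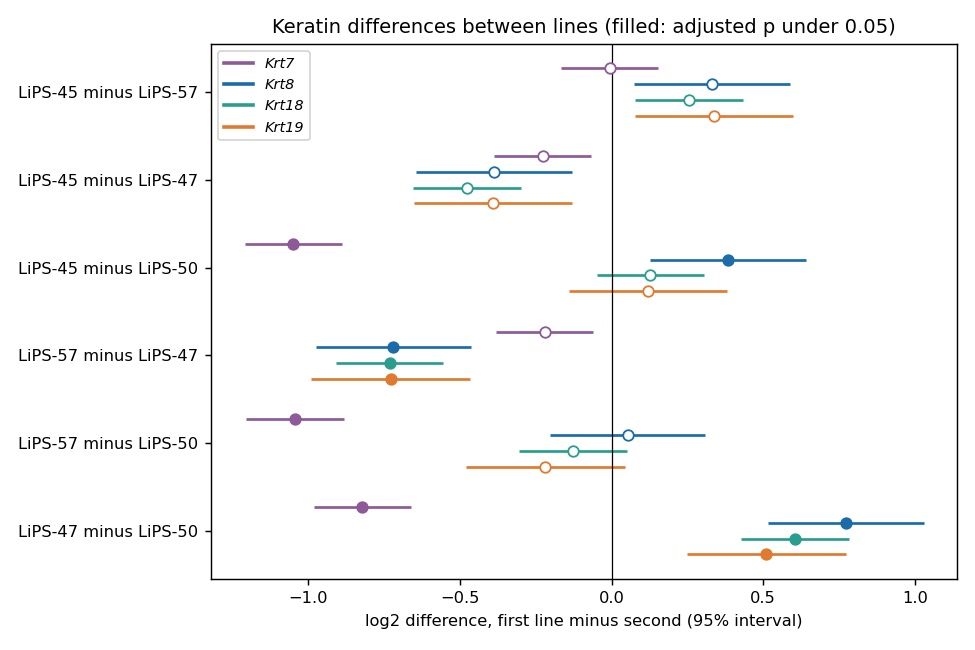
Difference in log2(intensity + 1) of each keratin between the lines of each of the 6 pairs, first line minus second; bars are 95% intervals from the fit of all 4 lines and filled points have an adjusted p under 0.05. Krt7 is negative in every pair with LiPS-50, and Krt8, Krt18 and Krt19 lie near -0.72 in LiPS-57 minus LiPS-47 and between 0.51 and 0.77 in LiPS-47 minus LiPS-50.

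The background of calls differed widely between the pairs. Between LiPS-57 and LiPS-47, 46 of 28939 tested probe sets passed, which is 0.159%, and 0.145% were lower in LiPS-57, beside 3 of the 4 keratins. In that pair the arrays of all 4 keratins did not overlap, against 11.9% of all probe sets. All 4 had an unadjusted p under 0.05, against 6.89% of all probe sets. The median difference over the 4 was -0.72, against -0.0049 over all probe sets. With those 2 lines fitted alone, the calls of Krt8, Krt18 and Krt19 did not hold (adjusted p = 0.336, 0.0575 and 0.238 by limma). With all probe sets of the table in the test, those of Krt8 and Krt19 did not (adjusted p = 0.103 and 0.105 by limma). Between LiPS-47 and LiPS-50, 15.8% of probe sets passed (7.31% higher and 8.48% lower in LiPS-47) and 30.7% did not overlap, beside 4 of 4 keratins on each count. Between LiPS-45 and LiPS-50, 2 of 4 keratins passed (Krt8 higher and Krt7 lower in LiPS-45), against 16.5% of probe sets (8.30% higher and 8.18% lower). Between LiPS-57 and LiPS-50, 1 of 4 passed (Krt7, lower in LiPS-57), against 15.6% in either direction and 8.16% lower. Centring each array on its median changed the share of all calls that were higher in the first line to 65.2%, against 50.4% without it, for LiPS-45 minus LiPS-50, and to 62.2%, against 47.8%, for LiPS-57 minus LiPS-50, while the signs of the called keratin differences stayed. Between LiPS-45 and LiPS-47 limma called 0 of 4 keratins and 0.0622% of probe sets, yet the arrays of all 4 keratins did not overlap, against 13.6% of probe sets, and 4 of 4 had an unadjusted p under 0.05, against 8.93% of probe sets. Between LiPS-45 and LiPS-57, 0 of 4 were called by limma, 3 had an unadjusted p under 0.05, against 8.01% of probe sets, and 0.266% of probe sets were called. The pairs share lines, so these counts are not independent of each other. The 4 keratins were chosen with earlier results of these data known, so their counts beside these shares are a description.

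For the comparison the study was built on, competent minus other lines, no keratin passed. The line was a random block in this fit, with a consensus correlation of 0.183 between arrays of a line. Krt7 averaged 6.15 over the 6 arrays of the competent lines and 6.79 over the 6 arrays of the other lines, a difference of -0.64 (95% interval -0.99 to -0.28, unadjusted p = 0.00191 and adjusted p = 0.648 by limma). The 1 correlation was shared by all probe sets, whereas Krt7 averaged 6.38 ± 0.038 in LiPS-47 and 7.20 ± 0.117 in LiPS-50. With 2 lines a class, the interval and unadjusted p of Krt7 therefore do not measure the spread between lines. The same holds for the intervals of Krt8, Krt18 and Krt19 below, whose LiPS-47 minus LiPS-50 differences were 0.77, 0.60 and 0.51. Krt7 was the 1 keratin whose competent arrays all lay below the other 6 arrays, a pattern that 0.321% of probe sets showed. Krt8 differed by -0.17 (-0.57 to 0.23), Krt18 by -0.30 (-0.61 to 0.0027) and Krt19 by -0.30 (-0.63 to 0.03), with arrays of the classes overlapping and adjusted p of 0.824, 0.651 and 0.657 by limma. Of all probe sets limma called 0%, and 2226 had an unadjusted p under 0.05. Leaving out 1 line moved these 3 values in both directions. Competent minus other lines was 0.22 for Krt8, 0.00057 for Krt18 and -0.05 for Krt19 without LiPS-47, and -0.55, -0.60 and -0.56 without LiPS-50. Without LiPS-57 it was -0.0018 for Krt8, -0.17 for Krt18 and -0.14 for Krt19, and without LiPS-45 it was -0.33, -0.43 and -0.47. Krt7 differed by -1.05 without LiPS-47 (adjusted p = 5.20e-07 by limma), in a comparison with LiPS-50 alone, and by -0.22 without LiPS-50 (adjusted p = 0.206 by limma). On leaving out 1 array the Krt8 value ran from -0.24 to -0.07, with the smallest sizes, -0.07 and -0.08, without LiPS-47 replicate 1 and without LiPS-57 replicate 3. With the spread between arrays of a line as the only error, 6.18% of probe sets passed, among them Krt7 (adjusted p = 2.13e-05) and Krt18 (adjusted p = 0.00905).

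The keratins also varied together between repeats of the same line. After subtraction of each line's mean, Krt18 and Krt19 correlated over the 12 arrays with Pearson r = 0.881 (exact permutation p = 0.00309 within lines, adjusted p = 0.0185 over 6 pairs) and Spearman rho = 0.832 (exact permutation p = 0.00617, adjusted p = 0.0185). Krt7 and Krt18 followed with r = 0.695 (exact permutation p = 0.00617, adjusted p = 0.0185) and rho = 0.811 (exact permutation p = 0.00386). Krt8 and Krt18, the classical filament partners, had r = 0.688 and rho = 0.538 (exact permutation p = 0.135 and 0.189), and this pair did not pass. The remaining r were 0.665 for Krt8 with Krt19, 0.643 for Krt7 with Krt19 and 0.522 for Krt7 with Krt8, with exact permutation p of 0.107, 0.0980 and 0.189, and their rho were 0.692, 0.657 and 0.420 (exact permutation p of 0.0656, 0.0694 and 0.265). Of the 28939 probe sets, 32 had a higher r with Krt18 than Krt19 did, which is 0.111%, and 715 (2.47%) had a higher r with Krt18 than Krt7 did.

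**Figure D3:**
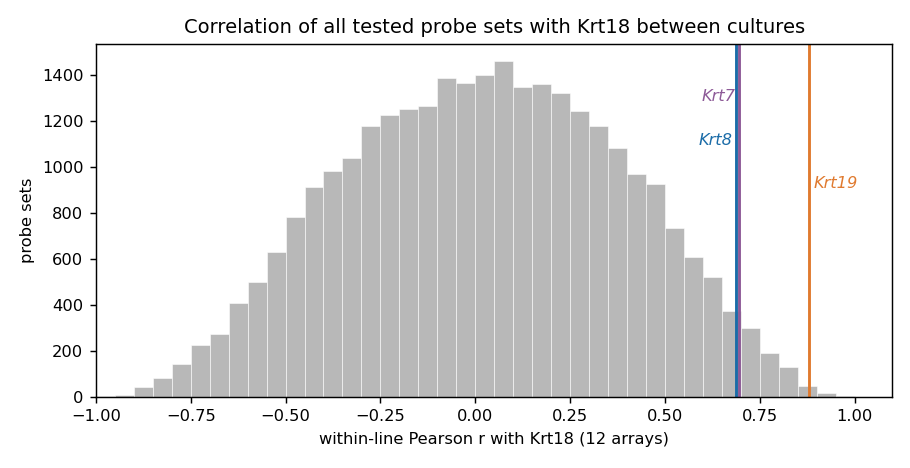
Distribution of the within-line Pearson r with Krt18 over 12 arrays for all tested probe sets (bars, in bins of 0.05), with Krt19, Krt7 and Krt8 as vertical lines. Krt19 lies in the far right tail at 0.881, and Krt7 and Krt8 lie at 0.695 and 0.688.

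These correlations drew on a few cultures. LiPS-57 replicate 2 was above its line's mean for all 4 keratins, by 0.11 for Krt7, 0.18 for Krt8, 0.18 for Krt18 and 0.28 for Krt19 on the log2 scale. LiPS-57 replicate 3 was below it for all 4, with deviations of -0.10, -0.28, -0.12 and -0.17. LiPS-47 replicate 1 was the highest array of its line for each keratin, at 0.04, 0.22, 0.08 and 0.11 above the mean. Without the 2 arrays farthest from the median of the first gene, r was 0.737 for Krt18 with Krt19, 0.550 for Krt7 with Krt18, 0.308 for Krt8 with Krt18, 0.650 for Krt8 with Krt19, 0.132 for Krt7 with Krt19 and 0.322 for Krt7 with Krt8. Krt8 with Krt18 and Krt7 with Krt19 therefore rest largely on those arrays. Both relations that passed lost their call on leaving out LiPS-45 replicate 2, LiPS-47 replicate 1 or any 1 array of LiPS-57, with adjusted p of 0.0556 to 0.115 by the exact permutation test, while r stayed between 0.736 and 0.929 for Krt18 with Krt19 and between 0.462 and 0.935 for Krt7 with Krt18. Krt7 with Krt19 passed without LiPS-50 replicate 1 (r = 0.744) or LiPS-50 replicate 3 (r = 0.905), each with an adjusted p of 0.0139 by the exact permutation test.

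**Figure D4:**
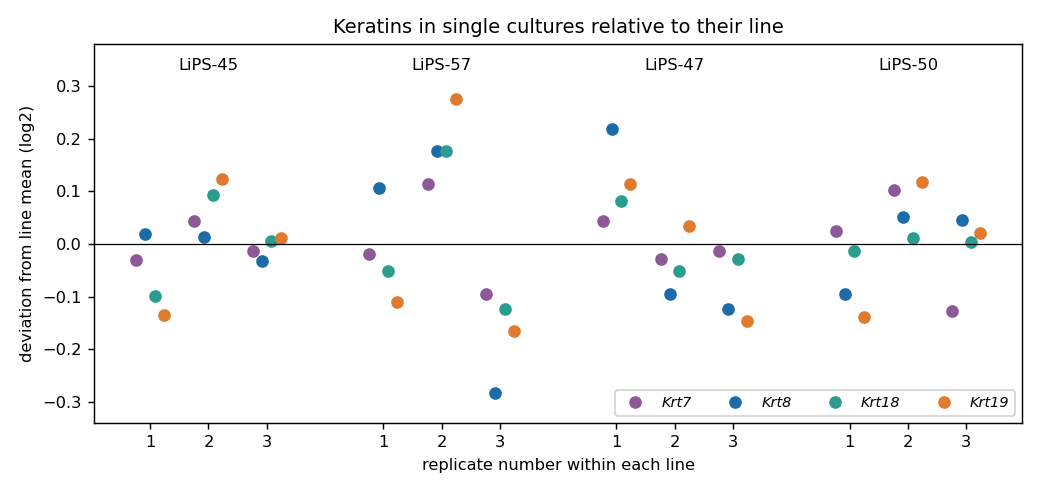
Deviation of each keratin from its line's mean on the log2 scale, for the 3 arrays of each line; replicate numbers name arrays and carry no order. All 4 keratins are above the mean in LiPS-57 replicate 2 and LiPS-47 replicate 1, and below it in LiPS-57 replicate 3.

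The strength of the relations looked different in the 2 classes, although that difference was not tested. Over the 6 arrays of the competent lines r was 0.993 for Krt18 with Krt19, 0.963 for Krt7 with Krt18 and 0.954 for Krt7 with Krt19, against 0.565, 0.328 and 0.262 over the 6 arrays of the other lines. Krt8 with Krt18 ran the other way, with r of 0.653 in the competent lines and 0.947 in the other lines. Krt18 hardly varied in LiPS-50, where its SD was 0.013. With 6 arrays the exact permutation test has 36 orders and a smallest p of 0.0278, so a pair could pass over 6 pairs only if at least 4 of them reached that p, and no call is read from the classes.

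Genes whose deviations from the line mean were most like those of the keratins came from a ranking of 12949 genes above the brightness limit, given as a description over the same 12 arrays. For Krt19 they were Clu, the secreted chaperone clusterin, with r = 0.944, Dmac2 with 0.931, Tpst2, a tyrosylprotein sulfotransferase, with 0.929, Rbm3, a cold-inducible RNA-binding protein, with 0.929 and Ell, an elongation factor of RNA polymerase, with 0.925. For Krt7 they were Psmc3ip, a cofactor of meiotic recombination, with r = 0.935, the kinase Pim3 with 0.931, Adck5 with 0.927, the odorant receptor gene Olfr1395 with 0.908 and Tspoap1 with 0.893. For the mean of Krt8 and Krt18 they were Cybc1 with r = 0.960, the planar cell polarity gene Vangl1 with 0.959, the NAD synthesis enzyme Nmnat1 with 0.951, the kinase Cdk11b with 0.943 and Ttc27 with 0.934. Of these 15 genes, Clu also had its highest line mean in LiPS-47 together with a call: it averaged 8.53 ± 0.059 in LiPS-47, against 8.03 ± 0.041 in LiPS-50 (log2, SD, n = 3 each), a difference of 0.50 (limma, adjusted p = 7.16e-04), while LiPS-57 minus LiPS-47 was -0.39 (limma, adjusted p = 0.104). Ttc27 and Dmac2 were likewise higher in LiPS-47 than in LiPS-50, by 0.51 and 0.44, but their differences between LiPS-57 and LiPS-47 were 0.02 and 0.14 (adjusted p of 0.990 and 0.753 by limma).

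No other keratin was called higher in LiPS-47 than in another line. Of 48 measured, 15 had a mean above the brightness limit. Between LiPS-57 and LiPS-47 limma called 0 of the 48, 3 had an unadjusted p under 0.05, and their differences ran between -0.31 and 0.30 with a median of -0.05. Between LiPS-47 and LiPS-50, 0 were higher and 2 were lower: Krt17, a type I keratin of basal and stressed epithelium, at 6.52 ± 0.013 in LiPS-47, against 6.86 ± 0.028 in LiPS-50 (log2, SD, n = 3 each; adjusted p = 0.0125 by limma), and Krt15, a basal type I keratin below the brightness limit, by -0.40 (adjusted p = 0.00581 by limma). Krt86 and Krt90 were lower in LiPS-45 than in LiPS-50, by -0.34 and -0.38 (adjusted p = 0.0141 and 0.00430 by limma), and Krt17 was lower there too, by -0.53 (adjusted p = 7.78e-04 by limma). Krt86 also lay below the brightness limit, with a mean of 3.90. Over all probe sets 7.31% were higher and 8.48% lower in LiPS-47 than in LiPS-50, and 8.18% were lower in LiPS-45 than in LiPS-50. Among the 18 measured genes that lie up to 3 places from a member on either side, 0 were called between LiPS-57 and LiPS-47 by limma, with differences of -0.20 to 0.30, and 1, Krt15 beside Krt19, between LiPS-47 and LiPS-50.

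Of the desmosomal and linker proteins that anchor keratin filaments, only 1 was called in both pairs in the direction of Krt8, Krt18 and Krt19. Of 17 measured, 0 were higher and 1 lower in LiPS-57 than in LiPS-47, and that gene was Dsp, desmoplakin, which ties keratin filaments to the desmosome. Dsp averaged 7.99 ± 0.023 (LiPS-45), 7.69 ± 0.123 (LiPS-57), 8.29 ± 0.132 (LiPS-47) and 7.81 ± 0.075 (LiPS-50) (log2, SD, n = 3 each), so its 4 lines stood in the order of Krt18 and Krt19. LiPS-57 minus LiPS-47 was -0.60 for Dsp (adjusted p = 0.00988 by limma). Between LiPS-47 and LiPS-50, 5 of the 17 were higher in LiPS-47, among them Dsp by 0.48 and the plakophilins Pkp2 by 0.49 and Pkp4 by 0.44, and 1 was lower, the cytolinker Plec, plectin, by -0.50. The list's median was 0.12 in that pair, against 0.01 over all probe sets, of which 7.31% were higher and 8.48% lower in LiPS-47.

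Other intermediate filaments split between LiPS-47 and LiPS-50, with 5 of 15 higher and 4 lower in LiPS-47. Over all probe sets 7.31% were higher and 8.48% lower there. The neurofilament genes Nefl and Nefh were higher by 1.14 and 0.39 and Ina, internexin, by 0.51, whereas Lmna, lamin A and C, was lower by -0.61 and Vim, vimentin, the filament of fibroblasts, by -0.37. Vim averaged 12.27 ± 0.141 in LiPS-47, against 12.63 ± 0.050 in LiPS-50 (log2, SD, n = 3 each; adjusted p = 0.00826 by limma). Of these 15, limma called 0 between LiPS-57 and LiPS-47, and 1 had an unadjusted p under 0.05.

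Of 24 measured epithelial identity genes, 11 were higher and 0 lower in LiPS-47 than in LiPS-50, and the list's median was 0.17. Over all probe sets 7.31% were higher and 8.48% lower in that pair. Cdh1, E-cadherin, was higher by 0.38 (adjusted p = 3.69e-04 by limma), Cldn6, a tight junction claudin, by 0.47, and the tight junction proteins Marveld2 and Ocln by 0.86 and 0.75. Epcam, an adhesion molecule of epithelial and pluripotent cells, was higher by 0.24 (adjusted p = 0.0198 by limma). Higher calls against LiPS-50 were not particular to LiPS-47. In LiPS-57, 9 of the 24 were higher and 2 lower than in LiPS-50, with a median of 0.15. In LiPS-45, 5 were higher and 3 lower than in LiPS-50, with a median of 0.10. Over all probe sets 15.6% were called in LiPS-57 minus LiPS-50 and 16.5% in LiPS-45 minus LiPS-50, in either direction. Between LiPS-57 and LiPS-47, where Krt8, Krt18 and Krt19 differed, limma called 0 of the 24, 5 had an unadjusted p under 0.05, and the median was -0.06.

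**Figure D5:**
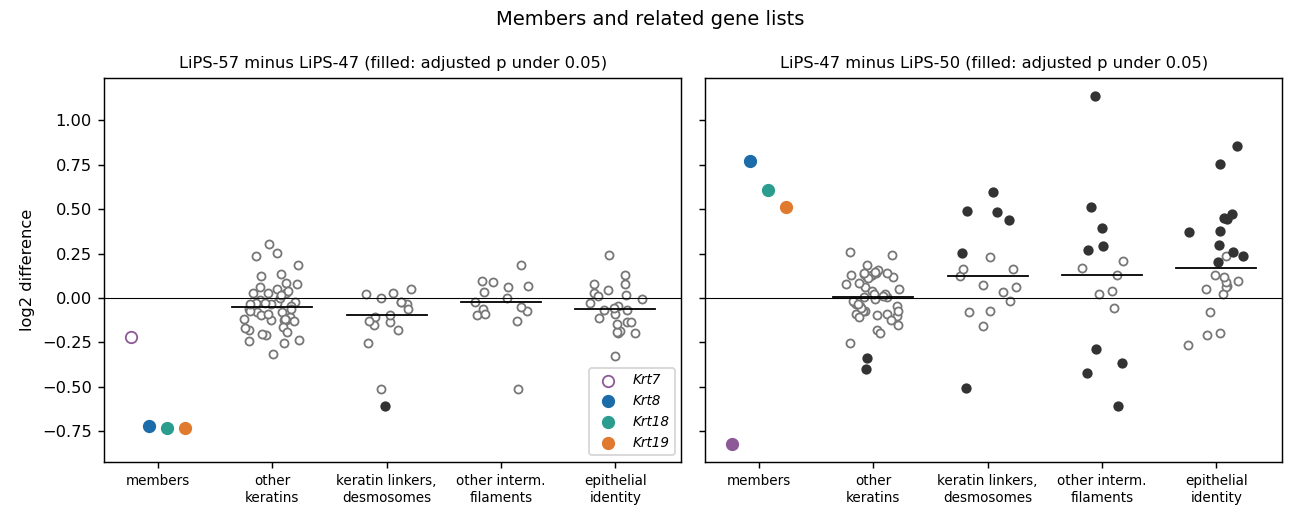
Log2 differences of the 4 keratins and of the genes of 4 related lists in LiPS-57 minus LiPS-47 (left) and LiPS-47 minus LiPS-50 (right); points are genes, filled where the adjusted p is under 0.05, and short bars are list medians. In the left panel Krt8, Krt18 and Krt19 lie below every gene of the lists, and in the right panel all 4 keratins are filled, Krt7 at -0.82.

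Markers of other cells differed in LiPS-50, the line in which Krt7 was high. In bulk RNA, more cells of a type and more RNA per cell cannot be told apart. Of 32 measured fibroblast and feeder genes, 29 were lower and 0 higher in LiPS-47 than in LiPS-50, and the same counts were found for LiPS-45 and for LiPS-57 against LiPS-50. Over all probe sets 8.48%, 8.18% and 8.16% were lower in LiPS-47, LiPS-45 and LiPS-57 than in LiPS-50. The summed intensity of the list, on the log2 scale, ran between 14.71 and 14.98 (LiPS-45), 14.76 and 14.86 (LiPS-57), 14.50 and 14.81 (LiPS-47), and 15.20 and 15.38 (LiPS-50). Col1a1, the chain of type I collagen, was 10.96 ± 0.226 in LiPS-47, against 11.69 ± 0.152 in LiPS-50 (log2, SD, n = 3 each), Col3a1 was lower in LiPS-47 by -1.04, Dcn, decorin, by -1.17 and Lox, lysyl oxidase, by -0.96. All 6 defining fibroblast markers passed the brightness limit on every array. Within lines the list's median had r = 0.053 with Krt7 and rho = 0.168 over 12 arrays (exact permutation p = 0.855 and 0.606), the lowest of 44 relations between lists and keratins having an adjusted p of 0.102. In LiPS-57 minus LiPS-47, 0 fibroblast genes were called by limma, 1 had an unadjusted p under 0.05, and the list's median was 0.13. Of the 32 genes, 30 had a higher and 2 a lower mean in LiPS-57 than in LiPS-47. In LiPS-45 minus LiPS-47, 31 were higher and 1 lower, also with 0 called, and the median was 0.15. The part of fibroblast RNA in the keratin differences was not tested.

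Trophectoderm genes other than keratins moved both ways between LiPS-47 and LiPS-50, with 2 of 24 higher and 11 lower in LiPS-47. Over all probe sets 7.31% were higher and 8.48% lower in that pair. The placental homeobox genes Rhox9 and Rhox6 were lower by -2.23 and -1.27, and Ascl2, a regulator of spongiotrophoblast, by -1.26, as Krt7 was, while Eomes, a trophoblast stem cell regulator, was higher by 1.30. The defining regulator Cdx2 did not pass (LiPS-47 minus LiPS-50 0.14, adjusted p = 0.592 by limma) and stood near the brightness limit, at 5.45 ± 0.089 (LiPS-45), 5.37 ± 0.136 (LiPS-57), 5.45 ± 0.339 (LiPS-47) and 5.31 ± 0.053 (LiPS-50) (log2, SD, n = 3 each). Of the 6 defining trophectoderm markers, 4 passed that limit on all 12 arrays and Elf5 passed it on 0. Gata3 and Tfap2c had higher means in LiPS-50, as Krt7 did. Gata3 was 5.71 ± 0.156 in LiPS-47 and 6.90 ± 0.191 in LiPS-50, and Tfap2c was 8.48 ± 0.044 and 8.69 ± 0.049 (log2, SD, n = 3 each). Hand1 was 5.94 ± 0.159 in LiPS-47 and 5.89 ± 0.220 in LiPS-50. The list's summed intensity ran between 11.99 and 12.04 (LiPS-45), 11.92 and 12.07 (LiPS-57), 12.07 and 12.13 (LiPS-47), and 12.26 and 12.34 (LiPS-50) on the log2 scale. Its median had a within-line r of 0.905 and a rho of 0.916 with Krt7, which did not pass over the 44 relations (exact permutation p = 0.00231 each, adjusted p = 0.102 each). With Krt8, Krt18 and Krt19 its r was 0.599, 0.805 and 0.755 (exact permutation p = 0.198, 0.0231 and 0.0548). In LiPS-57 minus LiPS-47, 0 of the 24 were called by limma and 4 had an unadjusted p under 0.05. The part of trophectoderm-like RNA in the keratin differences was not tested.

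Among AP-1 and Ets regulators, families known to act on the KRT18 gene in human cells, 4 of 17 were higher and 3 lower in LiPS-47 than in LiPS-50. Fosb and Atf3 were higher by 0.79 and 0.68, and the epithelial Ets factor Elf3 and Elk1 were lower by -0.61 and -0.46. In that pair 7.31% of all probe sets were higher and 8.48% lower. In LiPS-57 minus LiPS-47 limma called 0 of the 17 and 3 had an unadjusted p under 0.05. Keratins form a family with similar coding sequences, and whether other transcripts contributed signal to the 4 probe sets was not tested.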

How the data were processed

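The authors deposited 1 table of intensity values per probe set for 12 arrays, on a linear scale; the submitters' processing notes name GCOS 1.4, and the normalization is not given in the sources used here. Array quartiles differed by at most 0.095 on the log2 scale, so the deposited values were not rescaled. Values were taken as log2(value + 1), which understates changes of dim genes. Of 35556 probe sets, 6617 with IDs below those of annotated genes were left out as controls and 28939 were tested, of which 21789 have 1 gene symbol, 1621 several and 5529 none. Symbols were updated through RefSeq for 19856 of 19938 genes.

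All 4 lines were fitted together with limma 3.58.1 in R 4.3.3, with 8 residual degrees of freedom, and p-values were Benjamini-Hochberg adjusted over all tested probe sets (threshold 0.05). Competence used the line as a random block. The fit was tested on simulated data. Correlations used deviations from line means, with an exact permutation test over the 1296 orders of arrays within lines (scipy 1.17.1), two-sided; the smallest p it can give is 0.000772. Replicate numbers did not pair the arrays: the r of deviations of same-numbered arrays had a median of 0.012. Named genes are the members, the 5 genes most like each keratin profile, up to 4 genes per list with the smallest p in the pair described, 6 defining markers, and other keratins where called. The members and lists were chosen with earlier results of these data known. Clu, Ttc27, Dmac2, Elf5, Gata3, Tfap2c and Hand1 were given values after their data had been seen. Promoter letters and symbols came from RefSeq (GRCm38.p6), which matched 3 of the 4 members. Alternatives were other scalings, pseudocounts, filters, blocks and omitted arrays or lines.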

Additional observations from a re-analysis of the deposited data

How the results depend on the processing

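In total 20 alternatives were tried for each line pair. Krt7, Krt8 and Krt18 between LiPS-47 and LiPS-50, and Krt7 against LiPS-50 in the other pairs, passed in all 20. The replicate block, tried although the numbers did not pair the arrays, ended the call of Krt8 between LiPS-57 and LiPS-47 (-0.72, adjusted p = 0.0712) and gave 25 calls, against 46, in that pair. Testing all probe sets of the table ended Krt8 (adjusted p = 0.103) and Krt19 (-0.73, 0.105) in that pair, with 28 calls, and Krt8 in LiPS-45 minus LiPS-50 (0.38, 0.0706), as did quantile normalization for the last (0.36, 0.0621). Fitting 2 lines alone, with fewer arrays, ended Krt8 (-0.72, 0.336), Krt18 (-0.73, 0.0575) and Krt19 (-0.73, 0.238) in LiPS-57 minus LiPS-47, and gave 19 calls there, 49 against 77 in LiPS-45 minus LiPS-57 and 3 against 18 in LiPS-45 minus LiPS-47. Krt18 in LiPS-45 minus LiPS-47 passed with quantile normalization (-0.49), a pseudocount of 16 (-0.47, 49 calls) and dim probe sets left out (-0.48, 50 calls). For competence, dropping the random block gave 1789 calls, with Krt7 at -0.64 and Krt18 at -0.30 among them; without LiPS-47 there were 6711, Krt7 at -1.05, and Krt8 (0.22) and Krt18 (0.00057) changed sign; without LiPS-50 there was 1. Krt8 with Krt18 passed after median centring (r = 0.731), and Krt7 with Krt19 without LiPS-50 (0.895). Krt18 with Krt19 lost its call without LiPS-45 (0.859) or LiPS-57 (0.737), and Krt7 with Krt18 without LiPS-45 (0.693), LiPS-57 (0.415) or LiPS-47 (0.675). Within the competent and the other lines, where 36 orders can hardly give a call, r was 0.993 and 0.565 for Krt18 with Krt19 and 0.963 and 0.328 for Krt7 with Krt18. Causes were not tested.

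Leaving out 1 array at a time gave these ranges. Krt8 ran from 0.34 to 0.41 in LiPS-45 minus LiPS-50, from -0.81 to -0.58 in LiPS-57 minus LiPS-47 and from -0.036 to 0.19 in LiPS-57 minus LiPS-50, where the sign changed without LiPS-57 replicate 1 (-0.001) or 2 (-0.036). Krt7 in LiPS-45 minus LiPS-57 ran from -0.053 to 0.051, with sign changes at 0.0096, 0.0004 and 0.051 without LiPS-45 replicates 1 and 3 and LiPS-57 replicate 2. Krt18 in LiPS-45 minus LiPS-47 ran from -0.52 to -0.43, Krt19 from -0.87 to -0.65 in LiPS-57 minus LiPS-47 and from 0.44 to 0.58 in LiPS-47 minus LiPS-50. Values that were not called moved too: Krt19 from -0.36 to -0.14 in LiPS-57 minus LiPS-50 and from 0.05 to 0.19 in LiPS-45 minus LiPS-50, Krt8 from 0.19 to 0.42 in LiPS-45 minus LiPS-57, and Krt18 from -0.21 to -0.06 in LiPS-57 minus LiPS-50 and from 0.08 to 0.18 in LiPS-45 minus LiPS-50. Calls numbered 41 to 70 in LiPS-45 minus LiPS-57, 6 to 44 in LiPS-45 minus LiPS-47, 3106 to 4802 in LiPS-45 minus LiPS-50 and 23 to 61 in LiPS-57 minus LiPS-47. For r the ranges were 0.462 to 0.935 (Krt7 with Krt18), 0.384 to 0.905 (Krt7 with Krt19) and 0.736 to 0.929 (Krt18 with Krt19).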

Other observations

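Lists of cell types that could express simple epithelial keratins, not used above, gave the following values between LiPS-47 and LiPS-50. Over all probe sets 7.31% were higher and 8.48% lower in LiPS-47 in that pair. Of 21 primitive endoderm genes, 2 were higher and 5 lower in LiPS-47: Foxa2, a transcription factor of endoderm, was higher by 1.05, and Pdgfra, a receptor of primitive endoderm and of fibroblasts, was lower by -1.25, Dab2 by -0.77 and Sparc by -0.55. Within lines the median of the primitive endoderm list had r = 0.828 with Krt7 (exact permutation p = 0.00849, adjusted p = 0.187). Of 10 mesothelial genes, 2 were lower in LiPS-47, Msln, mesothelin, by -0.40 and Lrrn4 by -0.22. Of 14 surface ectoderm and keratinocyte genes, 4 were lower in LiPS-47, among them Perp, a desmosomal membrane protein, by -0.49, Trp63, a regulator of stratified epithelium, by -0.21, and Krt15 and Krt17, given above. Trp63 passed the brightness limit on 1 of the 12 arrays. Between LiPS-57 and LiPS-47 limma called 0 genes of these 3 lists, with 0, 0 and 1 at an unadjusted p under 0.05. Of 16 pluripotency genes, 3 were higher and 6 lower in LiPS-47 than in LiPS-50: Lin28a, an RNA-binding protein that blocks let-7 maturation, was higher by 0.48, and Tcl1, Tbx3 and Prdm14, regulators of the pluripotent state, were lower by -0.98, -0.72 and -0.73. In that list 1 gene was higher in LiPS-57 than in LiPS-47, Tcl1, a coactivator of the kinase Akt, at 7.03 ± 0.108 and 6.61 ± 0.031 (log2, SD, n = 3 each; adjusted p = 0.0260 by limma).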
